A study of Mus musculus with 6 samples.

Results

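A set of 10 matrix genes was described together: the tenascins Tnn, Tnc and Tnxb, fibronectin (Fn1), the fibronectin-repeat gene Fndc1, periostin (Postn), the thrombospondins Thbs1 and Thbs2, Sparc and osteopontin (Spp1). They are 10 of 21627 genes in the deposited table and were found by gene symbol. The set was chosen by a measured value, since Tnn and Fndc1 were among the genes furthest above wild type in Ezh2-knockout organoids, so the knockout to wild-type difference of these genes is given as a description, with no test. RNA came from mammary organoids of female FVB/N mice of the MIC line, aged 8 to 12 weeks, which express polyomavirus middle T, an oncogene, in response to doxycycline. The wild-type group (WT) carried the genotype label MIC/Wild-type and the knockout group (KO) the label MIC/Conditional Ezh2 KO, in which the same drug deletes Ezh2. Both groups had 3 libraries, and all 6 received 2 µg/ml doxycycline for 8 days after 6 days of acinus formation from about 10000 plated epithelial cells. The drug that induces the oncogene was thus common to both groups, the level of the oncogene itself was not measured here, and no library without doxycycline was analysed here. The labels name neither the promoter that drives the switch nor the cells it acts in, and they leave the origin of the replicates (the same or separate mice) unstated, so every p-value measures only the spread between these libraries, which may be technical.

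Matricellular proteins are secreted into the extracellular matrix but act mainly as signals to cells rather than as scaffold. Tenascins and thrombospondins are built from repeated modules, bind integrins and other surface receptors, and can loosen or strengthen the hold of a cell on fibronectin and collagen. In adult mammary gland several of them are low and rise in remodelling tissue, wounds and tumour stroma. Ezh2 is the enzyme of the Polycomb complex PRC2 and places the repressive histone mark H3K27me3, and in mammals this complex tends to sit at promoters rich in CpG dinucleotides. No histone mark was measured here.

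The upstream windows of 4 genes are shown because the described genes differ in the CpG content of that stretch. CpG content alone does not show where PRC2 sits. Each window is the 250 bases before the RefSeq start site on build GRCm38.p6, written 5′ to 3′ on the gene's own strand, with CpG dinucleotides in capitals. Tnn lies on the minus strand (chr1:160153576-160153825), Fndc1 on the minus strand (chr17:7827303-7827552), Tnc on the minus strand (chr4:64047016-64047265) and Postn on the plus strand (chr3:54360857-54361106).
Tnn: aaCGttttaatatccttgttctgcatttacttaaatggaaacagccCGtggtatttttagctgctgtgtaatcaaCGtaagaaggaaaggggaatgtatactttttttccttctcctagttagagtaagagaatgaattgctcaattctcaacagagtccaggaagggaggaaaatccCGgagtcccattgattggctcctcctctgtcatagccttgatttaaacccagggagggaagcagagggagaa
Fndc1: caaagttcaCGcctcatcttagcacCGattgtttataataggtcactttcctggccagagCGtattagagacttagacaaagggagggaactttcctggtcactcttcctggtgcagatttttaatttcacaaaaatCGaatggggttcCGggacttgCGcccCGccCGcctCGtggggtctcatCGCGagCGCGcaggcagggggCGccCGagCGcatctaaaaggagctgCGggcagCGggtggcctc
Tnc: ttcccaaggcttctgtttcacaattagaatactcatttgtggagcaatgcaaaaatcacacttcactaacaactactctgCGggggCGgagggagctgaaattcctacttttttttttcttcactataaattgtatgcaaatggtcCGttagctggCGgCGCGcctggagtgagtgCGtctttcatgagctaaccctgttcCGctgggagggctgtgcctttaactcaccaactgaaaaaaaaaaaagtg
Postn: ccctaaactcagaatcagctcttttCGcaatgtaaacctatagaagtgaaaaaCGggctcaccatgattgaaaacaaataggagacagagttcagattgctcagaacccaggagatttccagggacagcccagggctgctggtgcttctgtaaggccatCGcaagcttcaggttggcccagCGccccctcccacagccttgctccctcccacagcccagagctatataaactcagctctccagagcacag
A window was found for 8 of the 10 genes. The Fndc1 window held 18 CpG, more than 78.33% of 32851 windows of all genes, in a GC content of 56.0%. The Tnn window held 4 CpG and Tnc 8, against a median of 6 over all windows, and the windows nearest the start of Postn, Sparc and Tnxb held 4 each and those of Thbs2 and Spp1 held 3 each. Tnn and Fndc1, the pair furthest above WT, thus lay on opposite sides of the median. The following 4 motifs, whose matches in these windows do not overlap, were searched on both strands: the TEAD motif GGAATG, the AP-1 motif TGANTCA, the core promoter box TATAAA and the upstream box CCAAT. They occur in 12.64%, 6.75%, 12.37% and 33.85% of all windows. Tnn held 1 TEAD match that begins 160 bases before the start and 1 CCAAT match at 59 bases, and Tnxb 1 AP-1 match at 55 bases. The letters TATAAA, or TTTATA on the other strand, were matched at any distance in 5 of the 8 windows nearest the annotated start. The match was at 26 bases in Postn, 126 in Tnc, 126 in Thbs2, 211 in Spp1 and 219 in Fndc1. Thbs2 also held CCAAT matches at 186 and 144 bases and Spp1 1 at 46 bases. These matches describe the letters only.

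The libraries held 18292722 to 29203634 counts, the 3 deepest being the KO libraries. Ezh2 itself, in CPM (counts per library total scaled by TMM), was at 19.3, 22.6 and 14.7 in WT replicates 1 to 3 and at 7.13, 7.28 and 5.84 in KO replicates 1 to 3, without overlap (two-sided exact permutation p = 0.1, the smallest that 3 against 3 can give). Ezh2 RNA was thus lower in every library labelled KO, and at 0 in none of them. At an adjusted p under 0.05, the quasi-likelihood test of edgeR called 0% of 14196 tested genes, with 8.93% higher and 10.9% lower in KO at an unadjusted p under 0.05. DESeq2 called 7.37% of the same genes, 3.97% higher and 3.4% lower in KO.

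The labels give the cells as primary mammary epithelial cells. The luminal keratin genes Krt8 and Krt18 were at 1495.1 to 1914 CPM and 997 to 1397 CPM over the 6 libraries, and the myoepithelial keratin gene Krt14 at 178 to 216 CPM. Fibroblast markers were also abundant. The summed CPM of 12 such markers, none of them at 0 and led by Col1a1, Col1a2 and Col3a1, was 2362, 9366 and 12929 in WT replicates 1 to 3 and 10046, 8592 and 9587 in KO replicates 1 to 3. WT replicate 1 thus held the lowest fibroblast sum and WT replicate 3 the highest. The 3 collagen genes made up 90.4% to 96.7% of this sum, which is mainly a measure of collagen RNA. Among the WT libraries, replicate 1 was the lowest for every marker of the list except Pdgfra and Pi16, which were lowest in replicate 2. Pdgfra had 106, 51.3 and 151 CPM in the WT libraries and 84.9 to 120 CPM in the KO libraries. The 9 markers other than the collagens summed to 227, 345 and 625 CPM in WT replicates 1 to 3 and to 288 to 360 CPM in KO libraries. The luminal and Schwann sums did not overlap between the groups. The luminal sum of 12 markers was led by Krt8 and Krt18. It was 4043 to 4545 CPM in WT and 3840 to 3997 CPM in KO libraries, lower in each of the latter. Of these 12 markers, 5 had positive and 7 negative fold changes (44.5% of all genes were positive). Their median log2 fold change was −0.11, against −0.05 over all genes tested. Krt8 and Krt19 were lower in KO without overlap (14.6% of all genes). Gata3 was higher without overlap (14.2% of all genes), at 124 to 136 CPM in WT and 182 to 190 CPM in KO libraries. The sum of 7 Schwann markers, led by Sox10, was 373 to 436 CPM in WT and 519 to 594 CPM in KO libraries. It was higher in each of the latter. All 6 of the Schwann markers that were tested had positive fold changes (44.5% of all genes). All 11 macrophage markers in the table had negative fold changes, with a median log2 fold change of −1.60 (−0.05 over all genes tested). Their sum overlapped between the groups, at 471, 2207 and 767 CPM in WT replicates 1 to 3 and 489 to 627 CPM in KO libraries. The groups did not overlap for 2 of the 11, both lower in KO (14.6% of all genes). Lyz2 had 78.0, 1277 and 339 CPM in WT replicates 1 to 3. The log2 fold change of Cd14 was −0.0068, and that of Tyrobp was −1.99, or −0.76 without WT replicate 2. The myoepithelial sum of 10 markers was 448 to 561 CPM with overlap. The part of these marker differences in the values of the 10 genes was not tested. In such bulk RNA, fewer cells of a type and less RNA per cell cannot be told apart.

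All 10 genes had counts in all 6 libraries and passed the filter on low counts. Together they took 0.515%, 0.802% and 1.24% of the counts in WT replicates 1 to 3 and 0.914%, 0.856% and 0.984% in KO replicates 1 to 3. The WT share spanned the KO share on both sides. Per gene length (FPKM, fragments per kilobase and library total), the order in KO organoids was Spp1 (1267 ± 112), Sparc (511 ± 40.0), Postn (453 ± 45.6), Fn1 (218 ± 36.5), Thbs1 (191 ± 36.0), Thbs2 (132 ± 7.54), Tnc (53.8 ± 1.92), Tnn (2.29 ± 0.815), Fndc1 (1.86 ± 0.717) and Tnxb (0.287 ± 0.0720) (FPKM, mean ± SD, n = 3). Sparc and Postn overlapped as neighbours in that order, as did Fn1 and Thbs1, and Tnn and Fndc1. In WT organoids the order was the same except that Fndc1 (0.596 ± 0.371 FPKM) stood above Tnn (0.428 ± 0.404 FPKM), and every pair of neighbours overlapped but Tnc (29.5 ± 17.3 FPKM) and Fndc1. The 10 genes therefore fall into 7 abundant ones and 3 at a much lower level. By mean FPKM over 14196 genes, Spp1 was the 17th, Tnn the 11232nd, Fndc1 the 11402nd and Tnxb, near the low end, the 13475th.

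**Figure D1:**
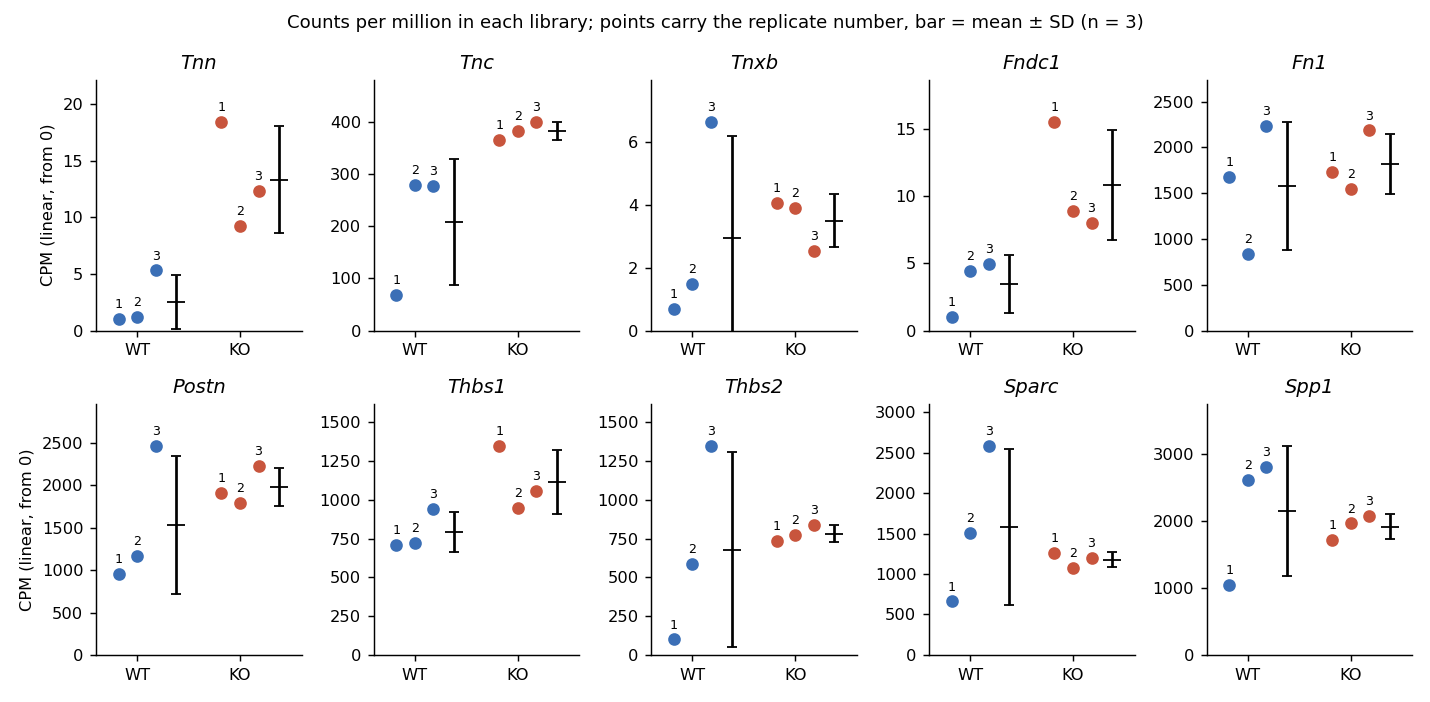
CPM (linear axis from 0) of each of the 10 genes in the 3 WT and 3 KO libraries, with replicate numbers beside the points and a bar for mean ± SD; the Tnxb bar in WT reaches below 0 and is cut there. Tnn, Tnc, Fndc1 and Thbs1 show no overlap between the groups, and WT replicate 1 is the lowest of all 6 points in every panel but that of Fn1.

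Tnn encodes tenascin N, also called tenascin W, which in the mouse is made in developing bone and in the stroma of mammary tumours. It lies on chromosome 1 from 160085036 to 160153580 (mm10, minus strand; up to 22 exons in a coding transcript). Its level was 1.04, 1.21 and 5.31 CPM in WT replicates 1 to 3 and 18.5, 9.25 and 12.3 CPM in KO replicates 1 to 3. Every KO library lay above every WT library, and WT replicate 3 stood apart from the other WT libraries. The group means were 2.52 ± 2.42 CPM in WT and 13.3 ± 4.69 CPM in KO, and the log2 fold change was 2.42 ± 0.65 (SE), the 11th largest of 14196. The WT values rest on 24, 25 and 95 counts, whose 95% Poisson intervals of 15.4 to 35.7, 16.2 to 36.9 and 76.9 to 116 cover counting error only.

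Tnc encodes tenascin C, the family member that is best known from wounds and tumour stroma, and lies on chromosome 4 from 63959785 to 64047015. It was at 68.8, 279 and 278 CPM in WT replicates 1 to 3 and at 366, 382 and 401 CPM in KO replicates 1 to 3. The KO libraries were close together and above all WT libraries, and WT replicate 1 was far below the others. The log2 fold change was 0.88 ± 0.47 (SE), and 0.48 without WT replicate 1. Tnc was the more abundant tenascin by far, with an FPKM 42.7 to 189 times that of Tnn in the WT libraries and 16.2 to 33.8 times in the KO libraries.

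Tnxb encodes tenascin X, a partner of collagen fibrils in loose connective tissue whose loss in humans gives a form of Ehlers-Danlos syndrome. It lies on chromosome 17 from 34670535 to 34719815. Its level was 0.692, 1.496 and 6.66 CPM in WT replicates 1 to 3 and 4.07, 3.91 and 2.53 CPM in KO replicates 1 to 3. The KO values lay inside the WT range, which spanned 9.63-fold. Its log2 fold change of 0.27 ± 0.74 (SE) was −0.19 without WT replicate 1, −0.041 without WT replicate 2 and 1.69 without WT replicate 3, so its direction was set by single libraries. A nearby pseudogene copy, Tnxa, has 0 rows in the table, so the Tnxb counts are given as uncertain. How reads shared by both copies were treated was not tested.

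Fn1 encodes fibronectin, which integrins assemble into fibrils, and Fndc1 encodes a secreted-type protein with fibronectin type III repeats about which less is known. Fndc1 lies on chromosome 17 from 7738569 to 7827302 and was at 0.994, 4.44 and 4.98 CPM in WT replicates 1 to 3 and at 15.6, 8.91 and 8.04 CPM in KO replicates 1 to 3. No KO library reached down to the WT range. Its log2 fold change was 1.65 ± 0.57 (SE), the 35th largest, with 23 to 92 counts per WT library behind it.

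Fn1 lies on chromosome 1 from 71585520 to 71653200 and was at 1677, 841 and 2229 CPM in WT replicates 1 to 3 and at 1730, 1547 and 2184 CPM in KO replicates 1 to 3. The groups overlapped, and Fn1 was the 1 gene of the 10 whose lowest library was WT replicate 2. Its log2 fold change was 0.20 ± 0.34 (SE), or −0.10 without WT replicate 2.

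Postn encodes periostin, a ligand of alpha-v integrins that takes part in collagen cross-linking. It lies on chromosome 3 from 54361109 to 54391034 and was at 956, 1171 and 2467 CPM in WT replicates 1 to 3 and at 1914, 1792 and 2228 CPM in KO replicates 1 to 3. WT replicates 1 and 2 lay below the KO range and WT replicate 3 above it. On the log2 scale, the fold change was 0.37 ± 0.35 (SE), and ran from 0.14 without WT replicate 1 to 0.90 without WT replicate 3.

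The thrombospondins differed from each other in how they varied. Thbs1, whose product can activate latent TGF-beta and binds the receptors CD36 and CD47, lies on chromosome 2 from 118111876 to 118127133. It was at 709, 723 and 940 CPM in WT replicates 1 to 3 and at 1348, 948 and 1057 CPM in KO replicates 1 to 3. The groups did not overlap, but WT replicate 3 and KO replicate 2 were nearly level. Its log2 fold change was 0.50 ± 0.19 (SE), and 0.34 without KO replicate 1.

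Thbs2, whose product restrains vessel growth and shapes collagen fibrils, lies on chromosome 17 from 14665500 to 14694262. It was at 99.7, 587 and 1347 CPM in WT replicates 1 to 3 and at 733, 773 and 839 CPM in KO replicates 1 to 3. WT libraries spanned 13.5-fold and KO libraries 1.14-fold. On the log2 scale, the fold change was 0.21 ± 0.74 (SE), −0.29 without WT replicate 1 and 1.19 without WT replicate 3. Per length, Thbs1 stood at 7.20, 1.25 and 0.707 times the FPKM of Thbs2 in WT replicates 1 to 3 and at 1.86, 1.24 and 1.28 times in KO replicates 1 to 3. The more abundant thrombospondin was thus Thbs1 in 5 libraries and Thbs2 in WT replicate 3.

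Sparc encodes a collagen-binding glycoprotein, and Spp1 encodes osteopontin, a ligand of integrins and CD44 that mammary epithelium and macrophages are both known to secrete. Sparc lies on chromosome 11 from 55394500 to 55420080 and was at 660, 1506 and 2584 CPM in WT replicates 1 to 3 and at 1261, 1075 and 1198 CPM in KO replicates 1 to 3. The KO libraries lay between WT replicate 1 and WT replicate 2. The log2 fold change was −0.43 ± 0.43 (SE), or 0.12 without WT replicate 3.

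Spp1 lies on chromosome 5 from 104435118 to 104441050 and was at 1039, 2613 and 2797 CPM in WT replicates 1 to 3 and at 1710, 1961 and 2068 CPM in KO replicates 1 to 3. All KO values again lay inside the WT range. The log2 fold change was −0.17 ± 0.35 (SE), or 0.069 without WT replicate 3. The summed CPM of 11 macrophage markers, none of them at 0, was 471, 2207 and 767 in WT replicates 1 to 3 and 489 to 627 in KO libraries, and its part in the Spp1 values was not tested.

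In GENCODE M21, exons of a gene on the same strand, a locus still to be experimentally tested, cover 18.8% of the exonic bases of Spp1, so reads there may come from either. Exons of noncoding genes on the opposite strand cover 3.42% of Thbs1, 2.499% of Fn1 and 2.27% of Tnc, and 3 bases of Tnxb. The library protocol names no strand-marking step, and without strand reads in these stretches cannot be told apart.

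**Figure D2:**
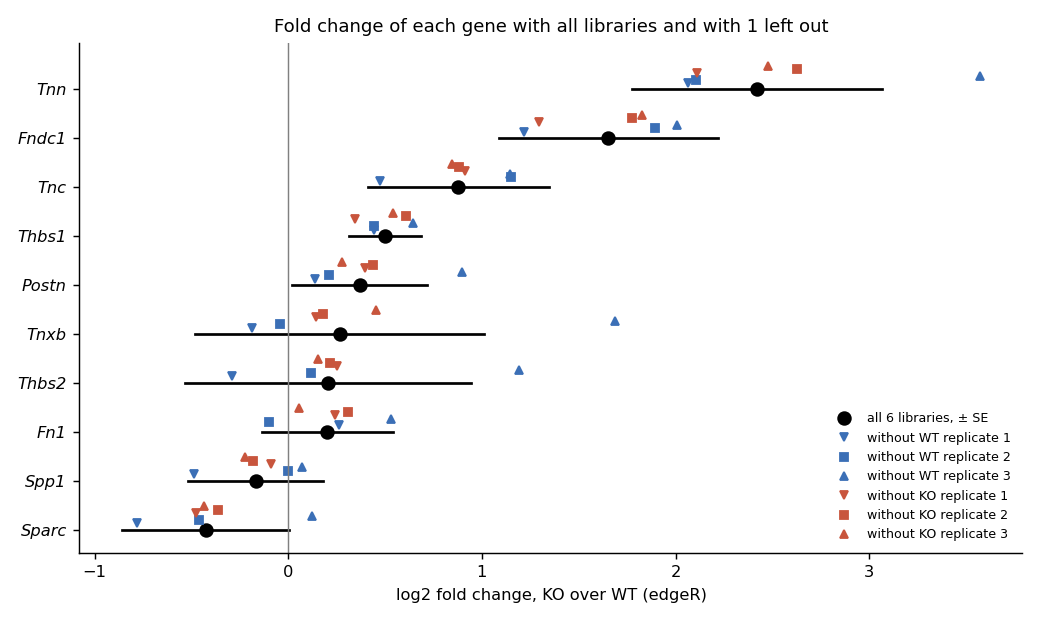
Log2 fold change (KO over WT, edgeR) of each of the 10 genes with all 6 libraries (black, ± SE) and with 1 library left out (coloured symbols). Tnn and Fndc1 stay right of 0 throughout, at 2.07 to 3.57 and 1.22 to 2.01, and Tnxb, Thbs2, Fn1, Spp1 and Sparc each cross 0 when a WT library is left out.

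Counted over the set, 8 of the 10 fold changes were positive (44.5% of all genes) and 2 negative, with a median log2 fold change of 0.32 against −0.05 over all genes tested. The groups did not overlap for 4 of 10, all higher in KO (14.2% of all genes were higher without overlap and 14.6% lower). Because the contrast was used to choose Tnn and Fndc1, nothing is read from these counts. The direction of Tnn, Tnc, Fndc1, Postn and Thbs1 was positive under all 22 alternative settings tried, and the other 5 genes turned sign in at least 1 of them.

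The spread among libraries of 1 genotype was not used to choose the genes. The SD of log2(CPM + 0.5) was larger among WT than among KO libraries for 9 of 10 genes, the exception being Thbs1, but this held for 82.6% of all genes tested. In size, the median SD over the 10 genes was 1.02 in WT and 0.21 in KO, against 0.26 and 0.11 over all genes. The largest WT SD were those of Thbs2 (1.92), Tnxb (1.33) and Tnc (1.16), and the smallest those of Thbs1 (0.23), Postn (0.72) and Fn1 (0.72). The WT library with the lowest level was replicate 1 for 9 of 10 genes (37.7% of all genes) and the highest was replicate 3 for 9 of 10 (25.4% of all genes), the exceptions being Fn1 for the lowest and Tnc for the highest. Replicate 1 was also the lowest of all 6 libraries for 9 of 10 (25% of all genes). This last count depends on the KO libraries too, and so on the contrast used to choose Tnn and Fndc1, and nothing is read from it.

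The fibroblast sum had the same lowest and highest library, as given above. Its part in the WT spread was not tested. As a description chosen after seeing the data, each gene was also expressed as a percentage of the fibroblast sum of its own library. On that scale Tnn was at 0.0439%, 0.0129% and 0.0411% in WT replicates 1 to 3 and at 0.184%, 0.108% and 0.128% in KO replicates 1 to 3. Fndc1 was at 0.0421%, 0.0474% and 0.0385% in the WT libraries and at 0.155%, 0.104% and 0.0839% in the KO libraries, so its WT libraries came close together. Tnc was at 2.92%, 2.98% and 2.15% in WT and at 3.64%, 4.45% and 4.18% in KO. These 3 genes did not overlap between the groups, KO being higher (0.451% of all genes on this scale), with ratios of the group means of 4.29, 2.68 and 1.53. Division by the fibroblast sum raises every gene most in WT replicate 1, where that sum was lowest. The denominator itself thus makes genes higher in KO rare, and the contrast was used to choose Tnn and Fndc1. Nothing is read from this share. Thbs1 then overlapped between the groups, at 30.0%, 7.72% and 7.27% in WT and 11.0% to 13.4% in KO. Sparc was lower in every KO library, at 28.0%, 16.1% and 20.0% in WT and 12.5% to 12.6% in KO (5.35% of all genes). Against the sum of the 9 markers that are not collagens, a denominator also chosen after seeing the data, Tnn, Fndc1 and Tnc again did not overlap, with ratios of 7.26, 3.90 and 2.28. On that scale Thbs1 and Postn were also higher without overlap (4.94% of all genes higher and 1.27% lower), with ratios of 1.52 and 1.58, and Sparc overlapped. The position of Thbs1, Postn and Sparc therefore depended on the denominator. The sum without collagens was also lowest in WT replicate 1, so nothing is read from the shares on that scale either.

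**Figure D3:**
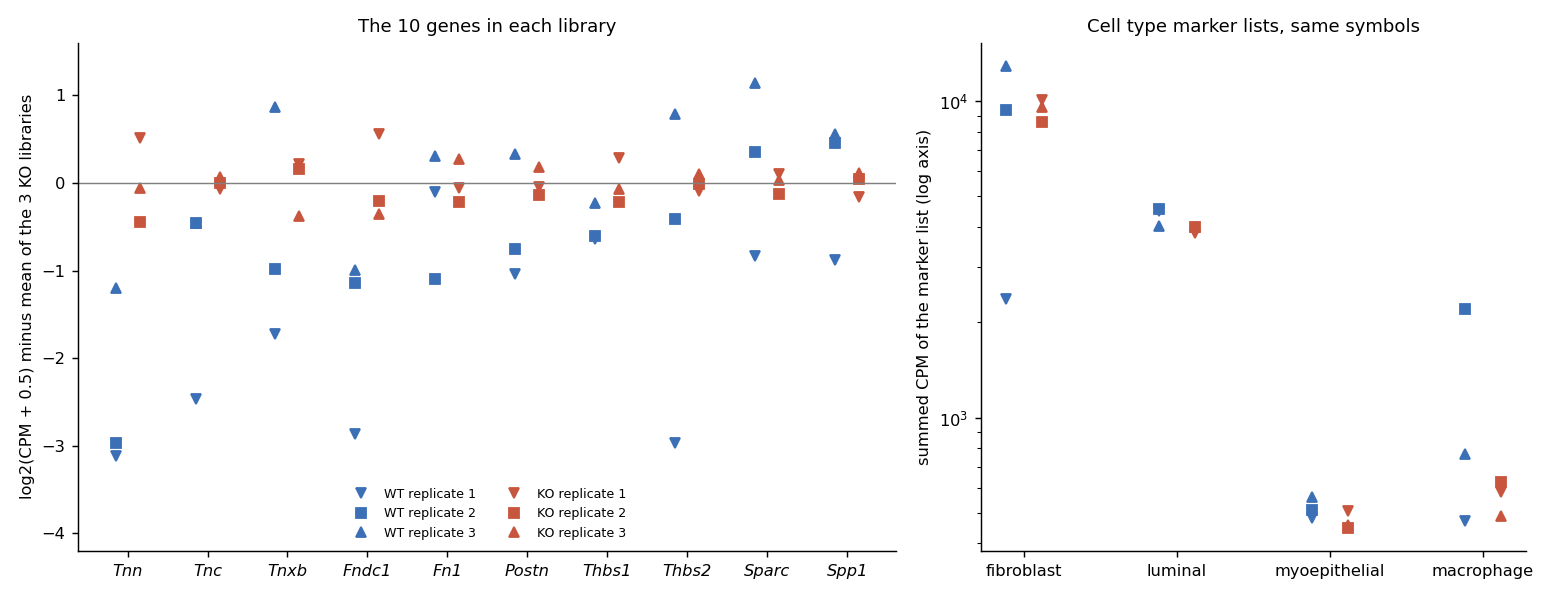
Left, log2(CPM + 0.5) of each of the 10 genes relative to the mean of the 3 KO libraries; right, summed CPM of 4 marker lists on a log axis, with colour for genotype and symbol for replicate. WT replicate 1 holds the lowest point for 9 of the 10 genes and the lowest fibroblast sum (2362 CPM against 8592 to 12929 CPM), and the luminal sums lie between 3840 and 4545 CPM.

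The genes most like Tnn over the 6 libraries, by Pearson's r of log2(CPM + 0.5) among 10483 protein-coding genes with a mean CPM of at least 5, were Slc6a6 (0.999), Timp2 (0.998), Arhgap31 (0.997), Mfn1 (0.997) and Lrp5 (0.995). Slc6a6, the taurine transporter gene, had 453, 467 and 683 CPM in the WT libraries and 1008, 817 and 920 CPM in the KO libraries. Timp2, an inhibitor of matrix metalloproteinases, had 797, 785 and 1072 CPM in the WT libraries and 1453, 1248 and 1330 CPM in the KO libraries. The genes most like Fn1 were Apba1 (0.996), Sec24a (0.994), Zcchc24 (0.992), Limk2 (0.991) and Zc2hc1c (0.991). Pearson's r takes no account of the size of a change. Tnn ran from 1.04 to 18.5 CPM over the 6 libraries, but Mfn1 only from 90.5 to 107 CPM and Arhgap31 from 25.7 to 42.5 CPM. Fn1 ran from 841 to 2229 CPM and Sec24a from 33.9 to 47.4 CPM. The 6 points share library depth and genotype, and the leading values of so many candidates describe likeness of pattern only.

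Genes around these 10 were taken from 6 lists that hold none of them: relatives in the same families, CCN proteins, fibulins and elastic fibre genes, other matrix glycoproteins, receptors, and matrix proteases. Of 106 listed genes 86 were tested. DESeq2 called 6 of them higher and 2 lower in KO organoids (7.37% of all genes were called in either direction, and 9.3% of these), and edgeR called 0, with 12 higher and 5 lower at an unadjusted p under 0.05 (8.93% and 10.9% of all genes). Their median log2 fold change was 0.11 against −0.05 over all genes tested.

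Among the receptors, the integrin genes Itga8 and Itgb8 were higher and Ptprz1 lower in KO organoids by DESeq2 (3.97% and 3.4% of all genes). Itga8, whose product pairs with integrin beta 1 to bind tenascin W, fibronectin and osteopontin, was at 63.1, 84.3 and 79.3 CPM in WT replicates 1 to 3 and at 136, 133 and 118 CPM in KO replicates 1 to 3. The groups did not overlap, and the log2 fold change was 0.77 ± 0.13 (SE), with an adjusted p of 0.000123 in DESeq2 and 0.0833 in edgeR. Itgb8, a partner of integrin alpha v in the activation of latent TGF-beta, had 88.1, 85.9 and 121 CPM in the WT libraries against 162, 168 and 164 CPM in the KO libraries (log2 fold change 0.74 ± 0.15, SE; adjusted p 0.000840 in DESeq2 and 0.0878 in edgeR). Ptprz1, a receptor-type phosphatase that binds tenascin C, had 4.54, 8.35 and 7.83 CPM in the WT libraries against 1.182, 2.52 and 1.58 CPM in the KO libraries (log2 fold change −1.97 ± 0.38, SE; adjusted p 0.000119 in DESeq2 and 0.0867 in edgeR). DESeq2 called these 3 genes with any 1 of the 6 libraries left out. Their adjusted p ran from 1.34e-06 to 0.407 for Itga8, 1.15e-13 to 0.407 for Itgb8 and 1.30e-06 to 0.407 for Ptprz1 over the alternatives. Of 20 receptor genes tested 13 had positive and 7 negative fold changes (44.5% of all genes were positive), with a median of 0.10. Of other fibronectin and osteopontin receptors, Itgb1 had a log2 fold change of 0.12 ± 0.14, Cd44 of 0.053 ± 0.14 and Itgav of 0.35 ± 0.15, and DESeq2 and edgeR called none of the 3. Tlr4, a receptor of tenascin C, was at 0.31 ± 0.12 and not called.

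The relatives in the same families had 12 of 15 positive fold changes (44.5% of all genes) and a median log2 fold change of 0.37 (−0.05 over all genes). Fndc5, which encodes the precursor of irisin, was called higher by DESeq2 (adjusted p 0.00518, or 0.115 in edgeR), as were 3.97% of all genes. It was at 8.26, 9.46 and 15.8 CPM in WT replicates 1 to 3 and at 20.1, 23.4 and 25.9 CPM in KO replicates 1 to 3, a log2 fold change of 1.05 ± 0.26 (SE), and it was called in 4 of 6 DESeq2 runs with 1 library left out. Smoc1, a SPARC relative, was at 0.69 ± 0.27 and Fndc3b at 0.49 ± 0.19, Comp, a thrombospondin relative, at 1.17 ± 0.57, and none of these was called. The fourth tenascin gene, Tnr, known from the nervous system, had too few counts to test.

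Of 20 fibulin and elastic fibre genes tested, DESeq2 called 2 higher and 0 lower (3.97% and 3.4% of all genes). Their median log2 fold change was 0.18, against −0.05 over all genes tested. Eln, the elastin gene, had 5.92, 18.7 and 21.03 CPM in the WT libraries against 64.7, 28.4 and 30.2 CPM in the KO libraries, the highest being KO replicate 1 (log2 fold change 1.44 ± 0.51, SE; adjusted p 0.0336 in DESeq2 and 0.198 in edgeR). Ltbp3, which holds latent TGF-beta in the matrix, was at 0.45 ± 0.14 (adjusted p 0.0326 in DESeq2 and 0.169 in edgeR). Eln was called in 2 and Ltbp3 in 3 of the 6 DESeq2 runs with 1 library left out, and the fold change of Eln was 0.95 without KO replicate 1. Ltbp1 (0.37 ± 0.11) and Emilin2 (−0.38 ± 0.14) were not called.

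The 16 other matrix glycoproteins tested went both ways, 8 positive and 8 negative, with a median of −0.04. Over all genes, 44.5% were positive, and DESeq2 called 3.97% higher and 3.4% lower. DESeq2 called Frem2, a basement membrane gene, higher (1.02 ± 0.32; adjusted p 0.0310, or 0.163 in edgeR) and Ecm1 lower (−0.42 ± 0.11; adjusted p 0.0179, or 0.124 in edgeR), in 3 and 2 of the 6 runs with 1 library left out. Matn4 (0.77 ± 0.33) and Tnfaip6 (−1.29 ± 0.47) were not called. The 5 CCN genes tested had a median of −0.32 and 0 calls in DESeq2 and edgeR and 0 at an unadjusted p under 0.05 in edgeR. Ccn1 was at −0.48 ± 0.28, Ccn2 at −0.32 ± 0.31, Ccn3 at −1.11 ± 0.52 and Ccn4 at 0.23 ± 0.24. With 1 library left out, Ccn2 ran from −0.59 to −0.0027 (the latter without WT replicate 3), Ccn3 from −1.67 without KO replicate 1 to −0.62 without WT replicate 1, and Ccn4 from 0.020 without WT replicate 1 to 0.49 without WT replicate 3. Ccn1, listed by its older symbol Cyr61, was called lower without WT replicate 2, at −0.75 (adjusted p 0.0455 in edgeR, and 0.379 with all 6 libraries). The 10 matrix protease genes tested had a median of −0.16 and 0 calls in DESeq2 and edgeR. At an unadjusted p under 0.05 in edgeR 1 was lower (10.9% of all genes), Cela1 (−0.996 ± 0.37). Mmp3 was at −0.63 ± 0.40 (−0.22 without WT replicate 3), Mmp9 at −0.92 ± 0.58 (−0.35 without WT replicate 2) and Tll1 at 0.73 ± 0.48 (0.36 without WT replicate 1 and 1.26 without WT replicate 3).

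**Figure D4:**
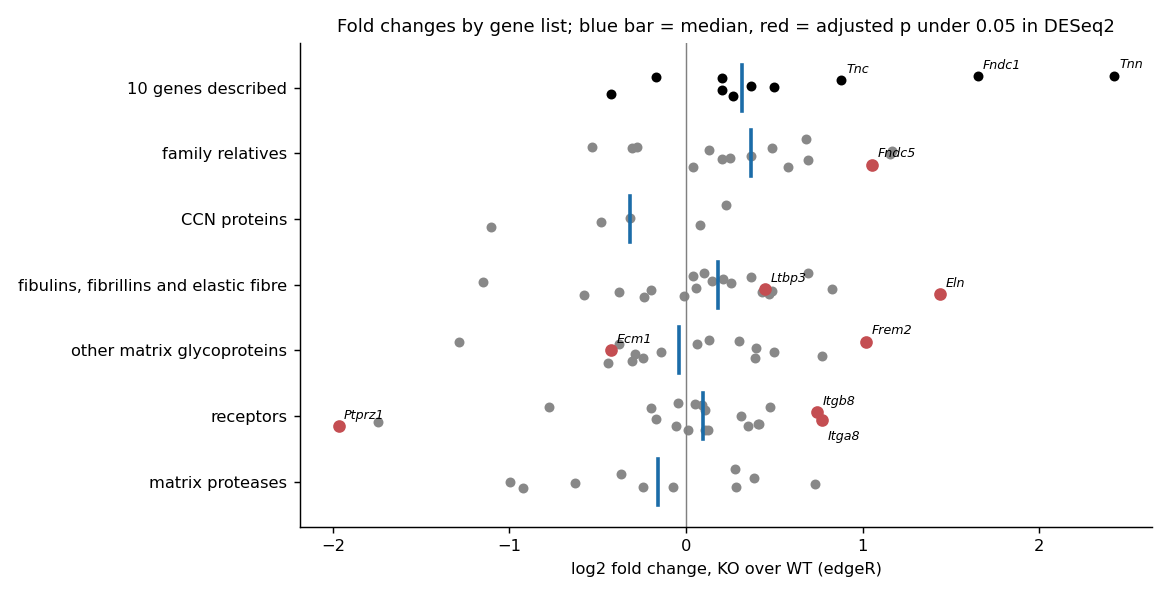
Log2 fold change (KO over WT, edgeR) of the 10 genes and of the tested genes in 6 related lists; blue bars are list medians and red points are list genes called by DESeq2 at an adjusted p of 0.05, and the 10 genes are black, with no call marked. The 8 red points are Fndc5, Ltbp3, Eln, Frem2, Itga8 and Itgb8 above 0 and Ecm1 and Ptprz1 below 0.

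The number of calls in these lists changed with each library left out, WT or KO. DESeq2 called 14 genes without WT replicate 1, 11 with replicate 2 of WT left out and 19 without WT replicate 3, against 8 with all 6 libraries and 4, 3 and 4 without KO replicates 1, 2 and 3. Calls over all genes moved in the same direction, from 7.37% with all libraries to 13.7%, 11.5% and 9.30% without WT replicates 1, 2 and 3 and to 1.93%, 2.54% and 2.23% without KO replicates 1, 2 and 3. The corresponding shares of the lists were 9.30%, then 15.9%, 12.6% and 21.8%, then 4.598%, 3.45% and 4.598%. Without WT replicate 3, the library with the highest fibroblast sum, 18 of the 19 were higher and the median log2 fold change of the lists in edgeR was 0.39, against 0.056 when WT replicate 1 was left out and 0.020 for WT replicate 2. The part of the fibroblast markers in these calls was not tested.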

How the data were processed

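The authors deposited 1 table with read counts, so named per the file headers, and FPKM for each gene in each of the 6 libraries. Rebuilding FPKM from count, gene length and column total gave the deposited values to within 2.1e-07 (relative). The table also holds, as deposited, a mean signal per group, a log2 fold change and p-values from the authors' own comparison, which supplied no result here. The submitters' processing notes name CASAVA, STAR and, as build, mm10, without versions. For the authors' test, counting tool and strand setting, nothing was given in the sources used here. Of the identifiers, 98.98% matched GENCODE M21, on the same build, and 24 symbols turned into dates were restored.

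The test across genes was that of edgeR 4.0.16 (R 4.3.3) on counts, with TMM scaling, filterByExpr (min.count 10, min.total.count 15), a robust quasi-likelihood F test, and Benjamini-Hochberg adjustment over all genes at 0.05. Alternatives used DESeq2 1.42.0 and limma 3.58.1 (log2(FPKM + 1) and log2(FPKM + 0.1), genes with 0.5 FPKM in 3 samples, a scale that understates changes of low genes), other scalings and filters, the replicate number as a block, thinning to the smallest total, and each library left out. All tests were tried on simulated counts of equal spread in both groups. Most genes here spread more in WT than in KO, so that trial cannot show how the tests perform on these libraries. Named are the 10 genes, Ezh2, the leading markers, the 4 genes with the smallest p in each list, genes called, and the 5 genes most like Tnn and Fn1. Other genes were chosen after their values were seen: Pdgfra, Itgb1, Cd44, Itgav and Tnr. The set and lists were chosen with earlier results of these data known. Intervals from counts cover counting error only, since amplified copies carry no molecular identifiers. Promoter windows are from RefSeq (GRCm38.p6).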

Additional observations from a re-analysis of the deposited data

How the results depend on the processing

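Against 0 genes in edgeR, the number called over all genes was 1046 in DESeq2, 131 with no filter on low counts and 2 in limma on either FPKM scale, ran from 0 to 216 with each library left out (38 without WT replicate 1 and 216 without WT replicate 2), and in DESeq2, an alternative added after seeing the data, was 2002, 1671 and 1355 without WT replicates 1, 2 and 3 and 279, 366 and 323 without KO replicates 1, 2 and 3. In the 6 lists it was 0 in edgeR, 8 in DESeq2, 3 with no filter, 0 to 2 with each library left out and, in DESeq2, 14, 11 and 19 without WT replicates 1, 2 and 3 and 4, 3 and 4 without KO replicates 1, 2 and 3. The log2 fold change of Ezh2 (−1.48, adjusted p 0.0755) passed in DESeq2 (−1.47), with no filter (−1.46) and without WT replicate 2 (−1.33), ran from −1.63 to −1.33 with each library left out and in DESeq2 was −1.44, −1.32 and −1.62 without WT replicates 1, 2 and 3 and −1.51, −1.53 and −1.37 without KO replicates 1, 2 and 3. Signs turned only when a WT library was left out. Without WT replicate 1, Tnxb was at −0.19 and Thbs2 at −0.29 (the same in DESeq2). Without WT replicate 2, Tnxb was at −0.041 (−0.043 in DESeq2) and Fn1 at −0.10 (−0.087 in DESeq2), and Spp1 at 0.012 in DESeq2. Without WT replicate 3, Sparc was at 0.12 (0.14 in DESeq2) and Spp1 at 0.069 (0.088 in DESeq2). With each library left out in edgeR, Tnxb ran from −0.19 to 1.69, Thbs2 from −0.29 to 1.19, Fn1 from −0.10 to 0.53, Sparc from −0.78 to 0.12 and Spp1 from −0.49 to 0.069. The cause was not tested. On the log2(FPKM + 1) scale Tnn was at 1.21 and Fndc1 at 0.84. The count of genes with more spread in WT than in KO stayed at 9 under RLE and upper-quartile scaling and thinning.

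The replicate block gave 0 calls, as without it, over all genes and in the 6 lists, an adjusted p of 0.155 for Ezh2, and log2 fold changes of 2.71 for Tnn, 0.82 for Tnxb and 0.80 for Thbs2. Same-numbered libraries deviated from their group means with correlations of −0.09, 0.30 and 0.12. WT replicates 2 and 3 correlated best with the KO library of their own number, and WT replicate 1 with KO replicate 3 (0.29). With 3 libraries per group, such correlations cannot decide whether the numbers pair the samples, and the labels do not say. With 24, 23 and 16 counts for Tnn, Fndc1 and Tnxb in WT replicate 1, depth limits what can be said of single libraries for these genes.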
